A study of Mus musculus with 25 samples.

Results

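To compare the repressive mark H3K27me3 between mitofusin 2-null and VHL-null muscle, the autosomal peaks of 3 mfn2-/- and 3 vhl-/- ChIP-seq libraries were set side by side. These are 6 of the 24 libraries of the study for which a peak list was deposited, chosen by genotype and antibody, and only peaks on chromosomes 1 to 19 were kept. They gave 18893 peaks, of which 7371 came from mfn2-/- and 11522 from vhl-/- lists. All mice carried a mito-Dendra2 allele under a Pax7-Cre(ERT2) driver, which acts in muscle stem cells, so the deletion and the label reach these cells and the fibers they form. Tamoxifen (75 mg/kg, daily for 5 days) preceded injury of the tibialis anterior with 50 µL of 1.2% BaCl2, and Dendra2+ regenerating myofibers were dissected at 14 dpi (days post injury). The groups were labelled mfn2-/-, vhl-/- and wild-type, the last with 3 libraries given here as a control. The labels give no sex, age or number of animals per library, so p-values measure the spread between these libraries.

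H3K27me3, trimethylation of lysine 27 on histone H3, is deposited by Polycomb repressive complex 2 and removed by demethylases of the KDM6 family. It covers silent developmental genes, typically at CpG-rich promoters, in nearly every differentiated tissue. Mfn2 is an outer mitochondrial membrane protein needed for mitochondrial fusion, while VHL marks HIF1α for degradation. The study placed HIF1α downstream of Mfn2 in regenerating myofibers, and the comparison of the genotypes asks where their H3K27me3 lists coincide and where they part.

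A feature that sets the lists apart had to be dealt with first. On the X chromosome lay 1063, 1016 and 1105 peaks of the mfn2-/- libraries (30.2% ± 0.118 of all peaks, SD, n = 3), compared with 10, 12 and 10 in vhl-/- (0.277% ± 0.02, n = 3) and 0.260% ± 0.103 in wild-type (n = 3). These peaks were left out throughout. Whether they affect how many autosomal peaks were called in the same libraries was not tested. As the labels give no sex, a difference in sex between the groups could not be told apart from one in genotype. Of the 21 contractile and metabolic muscle genes that were listed as markers of the labelled tissue, 0 had a peak in any of the 6 lists. Neither Mfn2 nor Vhl had one, but the presence or absence of a peak does not show whether a gene was deleted. The deletions are thus unchecked by these data. Marker genes of fibroblasts, endothelium, immune, neural, fat, smooth muscle and epithelial cells were checked in the same way. Over all genes, 4157 had a peak in at least 1 of the 6 lists, while the RefSeq windows used below, from another annotation, cover 25748 autosomal genes. Among the markers, such a peak was found for 4 of 8 neural, 2 of 4 epithelial, 2 of 5 smooth muscle, 2 of 8 immune and 1 of 8 fibroblast genes. None of the 8 endothelial or 5 fat markers had one. Epcam was in all 6 lists, Pdgfra in 2 mfn2-/- and 3 vhl-/-, Cdh1 and Syt1 each in 3 and 1, and Rbfox3 in 1 and 3, while the other 6 with a peak were in at most 1 list of each genotype. Read totals are not part of the lists, hence library depth is unknown, and its part in any difference was not tested.

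Fewer autosomal peaks were called in mfn2-/- than in vhl-/- myofibers. The mfn2-/- lists held 2455, 2342 and 2574 autosomal peaks, and the vhl-/- lists 3873, 4023 and 3626. The wild-type lists held 3763, 3433 and 3427. The genotypes did not overlap, and the ratio of geometric means of mfn2-/- to vhl-/- was 0.64 (exact two-sided permutation p = 0.1 over 20 arrangements). With all chromosomes the lists overlapped, at 3518, 3358 and 3679 against 3884, 4035 and 3636 peaks (ratio 0.914, exact permutation p = 0.2). With 3 against 3 libraries 0.1 is the smallest p possible, so no comparison of this kind can pass 0.05. On all 19 autosomes every mfn2-/- list had fewer peaks than every vhl-/- list, with ratios of means from 0.55 on chromosome 7 to 0.75 on chromosome 14 and a median of 0.63.

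The peaks covered 2.26, 1.93 and 2.30 Mb in mfn2-/- and 3.75, 4.06 and 3.45 Mb in vhl-/- lists, a ratio of geometric means of 0.575 (exact permutation p = 0.1). Median peak width was 733 ± 48.0 bp in mfn2-/- and 798 ± 24.0 bp in vhl-/- (SD, n = 3 each; exact permutation p = 0.1), again without overlap. Wide peaks, defined as those of 3 kb or more, numbered 17, 11 and 19 in mfn2-/- and 47, 55 and 35 in vhl-/- lists. They made up 0.633% ± 0.144 and 1.18% ± 0.203 of the peaks (n = 3 each; exact permutation p = 0.1). At 5 kb or more the shares were 0.079% ± 0.0777 and 0.0857% ± 0.0644 (exact permutation p = 1).

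Peaks carry a score, 10 times the negative log10 of the caller's p-value, and the lowest score of every list was 50. To compare lists of the same length, each was also reduced to its 2342 highest-scoring autosomal peaks, the length of the shortest. The 2342nd peak then scored 50.7, 50.0 and 51.4 in mfn2-/- but 60.0, 61.5 and 58.1 in vhl-/- lists. At this equal length the median width was 791, 681 and 769 bp in mfn2-/- and 984, 1063 and 937 bp in vhl-/- lists (difference of means -248 bp, exact permutation p = 0.1). Wild-type medians were 948, 875 and 856 bp, between those of the mutants except for 1 library above the lowest vhl-/- value. Promoter peaks and intergenic peaks were both narrower in mfn2-/-, with medians of 795 ± 60.3 against 1054 ± 71.0 bp and 699 ± 45.5 against 937 ± 61.4 bp (n = 3 each).

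**Figure D1:**
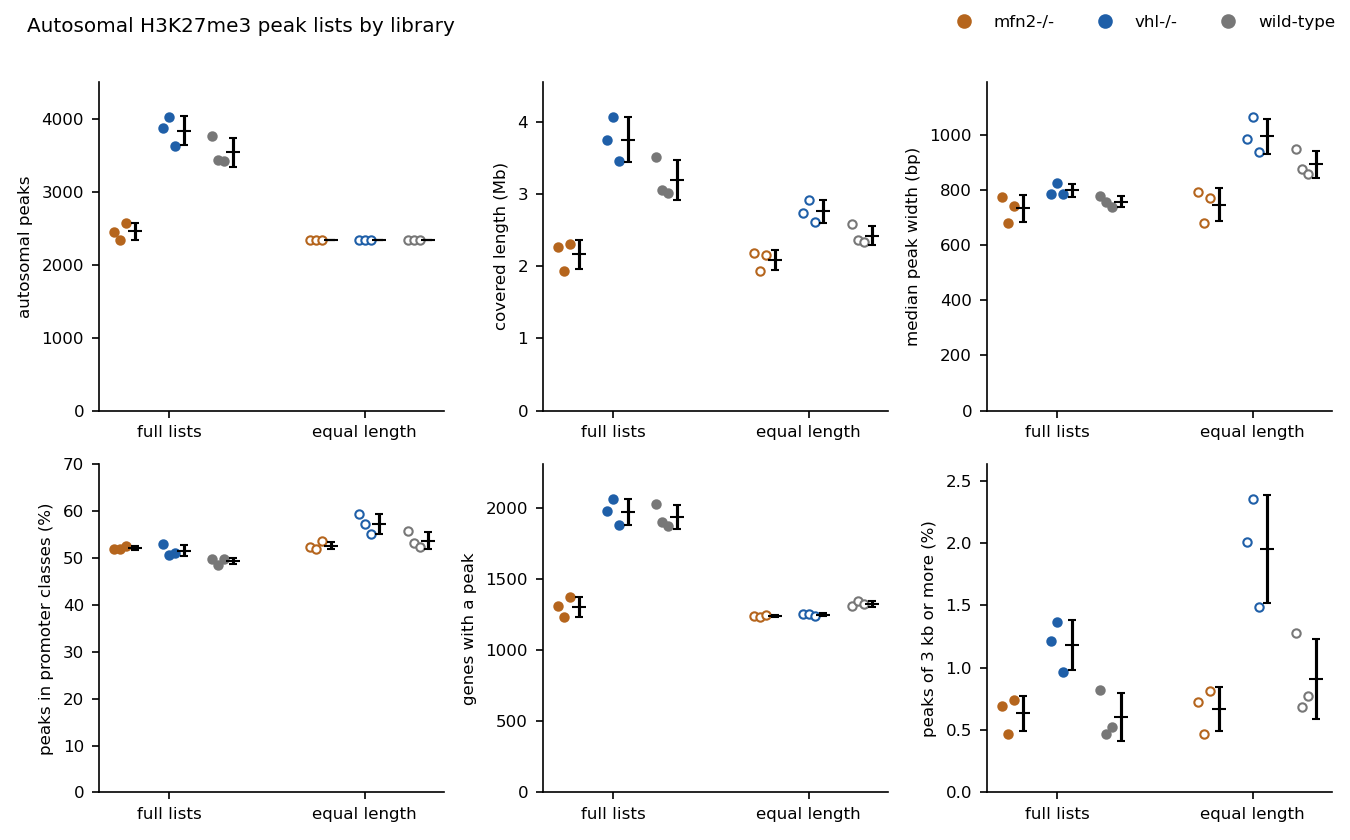
Autosomal peak number, covered length (Mb), median peak width (bp), share of peaks in promoter classes (%), genes with a peak and share of peaks of 3 kb or more (%) for each library, with full lists (filled points) and 2342 strongest peaks per list (open points). Points are libraries and bars show mean ± SD of 3; mfn2-/- libraries lie below every vhl-/- library for length and width at both settings and for number in full lists, while at equal length number is fixed at 2342 and gene numbers overlap.

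In full lists, 51.9%, 52.0% and 52.6% of mfn2-/- peaks were in the authors' promoter classes, which reach 3 kb from a start site, as were 52.9%, 50.7% and 51.0% of vhl-/- peaks. These ranges overlapped (difference 0.624 points, exact permutation p = 0.5). With 2342 peaks per list the shares were 52.3%, 52.0% and 53.5% in mfn2-/- and 59.4%, 57.3% and 55.2% in vhl-/-, a difference of -4.7 points with no overlap (exact permutation p = 0.1). This lay in the class up to 1 kb, at 29.0% ± 1.24 and 34.4% ± 1.70 (n = 3 each), while the class from 1 to 2 kb held 14.6% ± 0.512 and 14.2% ± 1.00. Gene body and distal intergenic shares were correspondingly higher in mfn2-/-, by 1.42 and 3.32 points (exact permutation p = 0.1 each). In full lists these differences were -0.326 and -0.257 points (exact permutation p = 0.8 and 0.9).

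Genes with at least 1 assigned peak numbered 1306, 1233 and 1373 in mfn2-/- and 1978, 2058 and 1877 in vhl-/- lists (ratio 0.661, exact permutation p = 0.1). The same 2342 peaks per list reached 1241, 1233 and 1247 genes in mfn2-/- and 1255, 1253 and 1238 in vhl-/- lists, which overlapped (ratio 0.993, exact permutation p = 0.3). Genes with a promoter peak were still fewer in mfn2-/- at that length, 813 ± 31.7 against 896 ± 40.1 (n = 3 each; ratio 0.908, exact permutation p = 0.1). Adjusted by the Benjamini-Hochberg method over the 10 tests on full lists, every exact permutation p of 0.1 became 0.143, and over the 9 tests at equal length 0.113.

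Similarity was measured as the Jaccard index, which divides the sequence covered in both lists by that covered in at least 1. In full lists it was 0.163 to 0.175 between mfn2-/- libraries, 0.187 to 0.196 between vhl-/- libraries and 0.148 to 0.171 between genotypes. The mean within genotypes exceeded the mean between them by 0.0179 (exact permutation p = 0.1 over 10 splits, the smallest possible). At equal length the excess was 0.00968 (exact permutation p = 0.1). Pairs of different genotypes then shared 0.170 to 0.188, above or within the 0.165 to 0.178 of mfn2-/- pairs. The means were 0.171 within mfn2-/-, 0.206 within vhl-/- and 0.179 between them, so this excess came from the vhl-/- pairs. Wild-type pairs averaged 0.152 in full lists and 0.162 at equal length, below the means between the mutants (0.161 and 0.179). Of the top 100 peaks of a list, 41.8% on average overlapped the top 100 of another mfn2-/- list, 39.2% did so within vhl-/-, and 36.0% of the mfn2-/- peaks overlapped those of a vhl-/- list. For the top 1000 the values were 41.7%, 44.7% and 44.1%. In the other direction, 34.1% of the top 100 vhl-/- peaks and 40.3% of the top 1000 overlapped those of an mfn2-/- list.

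Merging overlapping peaks of the 6 lists gave 9337 regions, of which 6464 (69.2%) were held by 1 library alone. All 6 libraries held 353 regions (3.78%). Regions in all 3 mfn2-/- and 0 vhl-/- libraries numbered 18, or 0.193% of the regions, and 125 (1.34%) showed the reverse. Most regions that recurred in every library of a genotype were also met in the other. Of 495 regions in all 3 mfn2-/- libraries 96.4% had a peak in at least 1 vhl-/- library, and of 795 in all 3 vhl-/- libraries 84.3% had one in at least 1 mfn2-/- library. At equal length there were 6467 regions, with 292 in all 6 libraries. Regions in all 3 libraries of 1 genotype and 0 of the other came closer in number, at 25 (0.387%) for mfn2-/- and 52 (0.804%) for vhl-/-. Of 467 regions in all 3 mfn2-/- libraries, 94.6% then had a vhl-/- peak. Of 555 in all 3 vhl-/- libraries, 90.6% had an mfn2-/- peak.

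**Figure D2:**
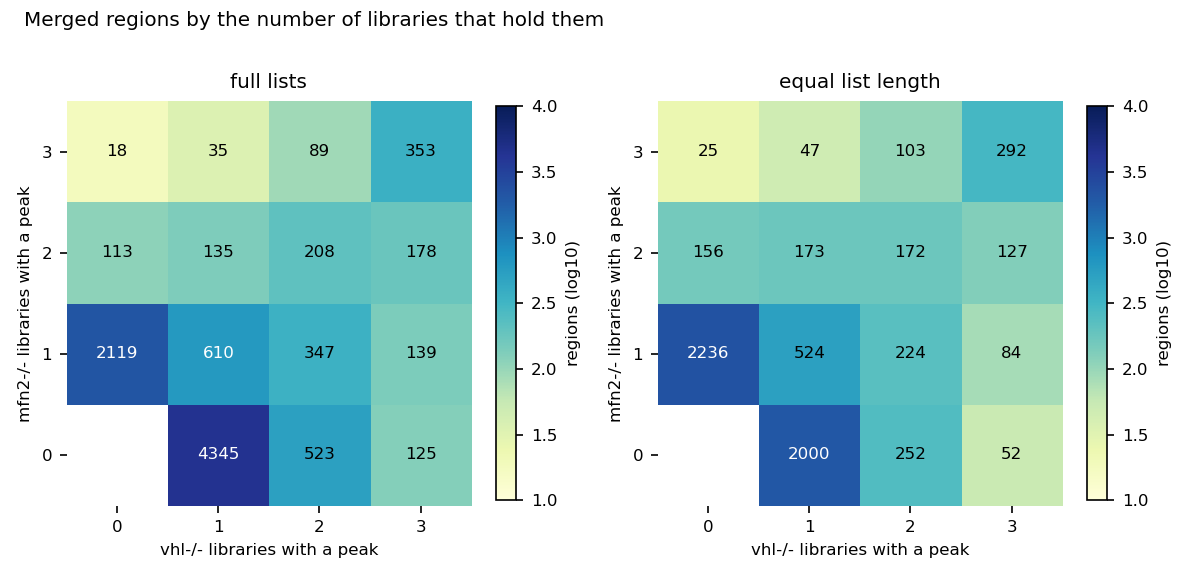
Number of merged autosomal regions by how many of the 3 mfn2-/- libraries (vertical) and of the 3 vhl-/- libraries (horizontal) hold a peak in them, for full lists and at 2342 peaks per list. Colour is log10 of the printed count; the corners at 3 and 0 hold 18 and 125 regions in full lists and 25 and 52 at equal length, fewer than the 353 and 292 held by all 6.

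The regions that separated the genotypes scored lower than those shared by all 6 libraries, and many lay near a peak of the other genotype. At equal length the median score was 77.3 for the 25 mfn2-/- regions and 84.4 for the 52 vhl-/- regions, compared with 136 for the 292 regions in all 6 libraries and 63.4 for those of a single library. A peak of the other genotype lay within 10 kb of 17 of the 25 and 28 of the 52, at a median distance of 929 and 5591 bp. The assigned gene itself had a peak in a list of the other genotype for 18 of 25 (72%) and 34 of 52 (65.4%). In the full lists, 10 of the 25 mfn2-/- regions had a vhl-/- peak, and 2 of the 52 vhl-/- regions had an mfn2-/- peak. These counts cannot be compared, as full lists hold 3626 to 4023 peaks in vhl-/- but only 2342 to 2574 in mfn2-/-. At least 1 wild-type list of the same length held 17 of the 25 and 44 of the 52.

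Among the mfn2-/- regions, Gm10801 (chr2:98661801-98663416) had the highest scores, at ranks 184, 2 and 7 of the lists, where rank 1 is the highest-scoring autosomal peak. The nearest vhl-/- peak lay 105 bp away. The next, 9230019H11Rik (chr10:3112223-3115160, intergenic), ranked 24, 526 and 60, had no vhl-/- peak within 1151251 bp and was in 0 wild-type lists. A pair of further regions of this gene, at chr10:3109489-3110547 and chr10:3111185-3111944, also belong to the 25. These loci, together with Gm9075 and Gm5614, are assigned to predicted genes or RIKEN transcripts, and those on chromosomes 10 and 12 lie near the start of the assembled chromosome, where repeats are common. The part of repeats in their peaks was not tested. Without the 4 loci, an alternative chosen after seeing the data, 21 and 52 regions separated the genotypes.

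Nog, which encodes the BMP antagonist noggin, was among the 10 strongest on the mfn2-/- side. Its promoter region (chr11:89300137-89302633) scored 164.34, 158.43 and 75.89 in the mfn2-/- libraries, at ranks 124, 115 and 863. No vhl-/- and no wild-type list had a peak assigned to it, and the nearest vhl-/- peak was 328889 bp away. Reln, which encodes the extracellular matrix protein reelin, ranked 485, 1098 and 477 (chr5:22342449-22344199), but the gene had a peak elsewhere in all 3 vhl-/- lists, the nearest at 1001 bp. That neighbouring Reln region (chr5:22345200-22347122) was itself one of the 52 held by vhl-/- libraries only. Other peaks of the gene in all 3 vhl-/- lists were also found for Wt1os, Hoxb5os and Barhl2, with vhl-/- peaks 587, 6 and 490 bp away. Gm11615, 2210408I21Rik and Tcte2 completed the 10 strongest, with best ranks of 543, 346 and 680.

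On the vhl-/- side the strongest region was the promoter of Gm15734 (chr5:9264327-9266332), at ranks 238, 325 and 767. Adgrl3, which encodes a latrophilin adhesion receptor, had ranks 320, 510 and 696 (chr5:81020996-81023871), and the nearest mfn2-/- peak was 662501 bp away. Mos, the germ cell kinase that acts in oocyte meiosis, ranked 832, 165 and 437 (chr4:3871009-3874732) and was also in all 3 wild-type lists, at ranks 139, 43 and 868. Rgs20, a regulator of G protein signalling (ranks 617, 506 and 728), and Gm11378 (511, 916 and 197) were likewise in 3 wild-type lists. Fat3, Olig2, Pax2, Phyhipl and Sowaha completed the 10 strongest, with best ranks of 248, 211, 208, 525 and 380. Olig2, a bHLH factor of oligodendrocytes and motor neurons, and Pax2, a paired box factor of kidney and midbrain, had other peaks in all 3 mfn2-/- lists.

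Promoter sequence was read where a region overlapped the window around a start site, from RefSeq windows of 300 bases (GRCm38.p6, the assembly that the labels call mm10). The CG dinucleotide, which can be methylated and is dense at Polycomb targets, was counted on the strand shown, and matches do not overlap. The median was 7 per window over 31396 windows, those of the autosomes given in the RefSeq table used here, and 44% of them held 10 or more. Regions in all 6 libraries at equal length took in 159 windows with a median of 14, and 74.2% of these held 10 or more. The 52 vhl-/- regions took in 13 windows with a median of 12, and the 25 mfn2-/- regions 4 windows with a median of 7. Those 4 held 7 (Nr5a2), 7 (Gm52808), 43 (Clstn2) and 2 (Gm41530), and the Clstn2 and Gm41530 windows lay in their regions over 2 and 10 bases only. The 13 vhl-/- windows ran from 1 (Lor) to 35 (Elapor2), so the counts of the genotypes overlapped. The 4 windows shown are a start site held by mfn2-/- libraries only (Nr5a2, a nuclear receptor), one in all 6 lists and ranked higher in mfn2-/- (Neurog2), and 2 held by vhl-/- libraries only (Grhl3, a transcription factor of the epidermis, and Adgrl3). Each is written 5′ to 3′ on the strand of its gene, with every CG in capitals, and they hold 7, 10, 12 and 20. They were picked, after their values were seen, from windows that lie wholly in a region, and are examples rather than a trend in CG content.
Nr5a2 (chr1:136953581-136953880, minus strand): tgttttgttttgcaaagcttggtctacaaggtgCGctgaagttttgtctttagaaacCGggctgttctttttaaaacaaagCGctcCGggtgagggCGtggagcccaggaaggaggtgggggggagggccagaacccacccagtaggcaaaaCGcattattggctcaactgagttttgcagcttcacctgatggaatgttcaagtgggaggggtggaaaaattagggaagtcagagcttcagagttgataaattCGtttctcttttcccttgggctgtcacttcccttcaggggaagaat
Neurog2 (chr3:127632886-127633185, plus strand): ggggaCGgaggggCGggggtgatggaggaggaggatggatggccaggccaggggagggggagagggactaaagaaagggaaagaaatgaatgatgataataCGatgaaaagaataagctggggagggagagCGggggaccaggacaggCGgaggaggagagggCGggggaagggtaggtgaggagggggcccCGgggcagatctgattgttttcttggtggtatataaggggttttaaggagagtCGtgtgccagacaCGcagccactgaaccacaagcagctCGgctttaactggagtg
Grhl3 (chr4:135573583-135573882, minus strand): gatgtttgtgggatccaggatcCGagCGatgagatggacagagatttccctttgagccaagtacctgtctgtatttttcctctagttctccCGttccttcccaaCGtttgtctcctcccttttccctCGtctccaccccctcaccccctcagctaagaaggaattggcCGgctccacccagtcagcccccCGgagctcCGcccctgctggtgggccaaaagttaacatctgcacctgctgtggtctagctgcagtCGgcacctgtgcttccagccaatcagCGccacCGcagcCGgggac
Adgrl3 (chr5:81021343-81021642, plus strand): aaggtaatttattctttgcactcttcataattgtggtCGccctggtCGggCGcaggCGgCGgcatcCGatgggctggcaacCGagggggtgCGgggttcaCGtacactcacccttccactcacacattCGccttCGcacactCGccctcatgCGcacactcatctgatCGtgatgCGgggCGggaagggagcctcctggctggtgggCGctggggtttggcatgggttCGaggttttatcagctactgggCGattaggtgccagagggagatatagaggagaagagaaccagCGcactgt
The Nr5a2 region was weak, at ranks 1095, 2250 and 2129 in mfn2-/-, and a vhl-/- peak lay 998 bp away. The Grhl3 region ranked 858, 365 and 1357 in vhl-/-, and the nearest mfn2-/- peak was 110348 bp away.

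Within the 353 regions common to all 6 full lists, the rank of the best peak in each list was compared. In 17 regions (4.82%) every mfn2-/- library ranked the region higher than every vhl-/- library, and in 21 (5.95%) the reverse held. At equal length these were 14 (4.79%) and 22 (7.53%) of 292. With 3 against 3 libraries, a single arrangement of the 20 possible gives such an order in a given direction. The shares lie near that level, so the counts by rank are not read as a difference between the genotypes, and the regions named below are examples. Ranks depend on how many peaks score high, and the vhl-/- lists held more of these: at equal length 34.3% ± 3.42 of their peaks scored 100 or more, against 18.7% ± 1.46 in mfn2-/- (n = 3 each). By best score in place of rank, an alternative chosen after seeing the data, 8 regions (2.27%) were higher in mfn2-/- and 65 (18.4%) in vhl-/-. By rank as a share of the list length, chosen likewise, they were 9 (2.55%) and 50 (14.2%). All 21 regions ranked higher in vhl-/- were among those apart on both measures. For rank as a share of the list this was fixed in advance, as every vhl-/- list is longer than every mfn2-/- list. Of the 17 ranked higher in mfn2-/-, 8 stayed apart by score and 9 by rank share. The balance between the directions thus depends on the measure. The mean difference of log2 ranks reached -5.20 for Gm9075 and 3.94 for Lhx1 (mfn2-/- minus vhl-/-; negative values mean a higher rank in mfn2-/-).

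The regions ranked higher in mfn2-/- included Neurog2, Pax2 and Fezf1, which act in neural development. The region of Neurog2, a proneural bHLH factor (chr3:127629502-127638661), ranked 12, 91 and 89 in mfn2-/- and 547, 486 and 624 in vhl-/- lists. Wild-type ranks were 19, 54 and 86, within those of mfn2-/-. Its covered length did not separate the genotypes, at 5495 ± 406 and 5259 ± 1637 bp (n = 3 each). A region at Pax2 (chr19:44754513-44760996) ranked 97, 16 and 20 against 126, 333 and 395, and one at Fezf1, a forebrain zinc finger factor, 72, 251 and 27 against 308, 327 and 601. Their scores overlapped, at 178.26, 289.01 and 361.06 against 225.84, 156.5 and 127.99 for Pax2 and 200.55, 117.25 and 290.02 against 161.46, 157.69 and 108.46 for Fezf1. For Lin28b, an RNA-binding protein of early development, the ranks were 168, 119 and 66 against 1365, 475 and 303. Gm9075, Myh8, Gm5614, BC107364, Vax2os and 9030622O22Rik were the remaining regions among the 10 with the largest difference, and of these the scores of BC107364 overlapped too.

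The regions ranked higher in vhl-/- were led by Lhx1, a LIM homeobox factor of kidney and head development. Its region (chr11:84514560-84520649) ranked 598, 210 and 304 in mfn2-/- and 32, 11 and 30 in vhl-/- lists, with wild-type at 262, 69 and 366. Covered length there was 2197 ± 482 and 4373 ± 1472 bp (n = 3 each). Gata4, a factor of heart and endoderm, ranked 226, 398 and 374 against 114, 79 and 50. Dlx3 and Dmrta2 ranked 1154, 1314 and 213 against 117, 81 and 147, and 889, 887 and 822 against 53, 124 and 493. Sox11 and Cdkn2a, a cell cycle inhibitor gene and well-known Polycomb target, differed in the same direction, with Gm21188, Gm3764 and Gm11535 besides.

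**Figure D3:**
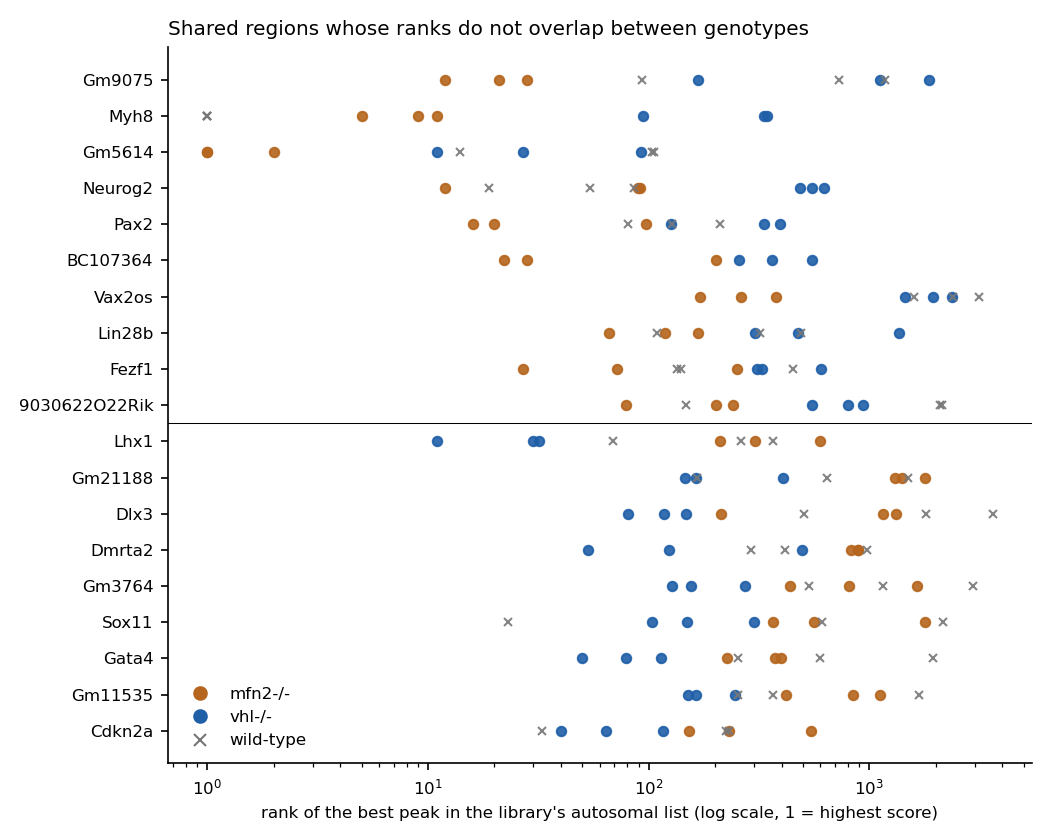
Rank of the best peak in each library's autosomal list (log axis, 1 is the highest score) for 10 regions ranked higher in mfn2-/- (above the line) and 9 ranked higher in vhl-/- (below). Each point is a library and crosses are wild-type; Myh8 lies at rank 1 in wild-type, 5 to 11 in mfn2-/- and 94 to 343 in vhl-/-.

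Myh8, the gene of neonatal myosin heavy chain, was set apart in rank, score and covered length, and it was the only gene of the 9 myosin heavy chain genes with a peak in any list. The region lay at chr11:67281766-67284884. Its best peak was in the promoter class from 1 to 2 kb in mfn2-/- and wild-type and in that from 2 to 3 kb in vhl-/- lists. These classes go by distance from a start site, and the paper places this mark inside the gene, across several introns. A second peak of the region in mfn2-/- 1 was annotated to exon 9 of 40. Scores of its best peak were 401.68, 511.25 and 413.64 in mfn2-/- and 250.83, 155.22 and 137.95 in vhl-/- lists. All 3 wild-type lists gave 3100, a value all 3 share as their highest score, at rank 1. In mfn2-/- the peak ranked 9, 5 and 11, and in vhl-/- 94, 343 and 333. It covered 2988 ± 77.5 bp in mfn2-/- and 1633 ± 178 bp in vhl-/- (SD, n = 3 each; difference 1355 bp, exact permutation p = 0.1, the smallest possible), compared with 3380 ± 86.4 bp of the same region in wild-type. Relative to the median of its list the best score was 6.32, 8.28 and 6.59 times as high in mfn2-/- and 3.81, 2.35 and 2.13 times in vhl-/- lists. Both mutants thus lay below wild-type, and vhl-/- below mfn2-/-, without overlap in score, rank or length. The RefSeq promoter window of Myh8 does not overlap the peak.

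The Myh8 region ran against the general direction of covered length. Of the 353 regions in all 6 lists, 285 (80.7%) had a lower mean covered length in mfn2-/- than in vhl-/-, with a median ratio of 0.769. The median length was 1853, 1710 and 1893 bp in mfn2-/- and 2482, 2623 and 2394 bp in vhl-/- lists. In 66 regions (18.7%) every vhl-/- library covered more than every mfn2-/- library, and in 6 (1.7%) the reverse. At equal length these were 44 (15.1%) and 6 (2.05%) of 292, and the median ratio was 0.798.

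Gata4, Sim1, Evx2 and Igf2bp3 were among the regions with the largest differences. Sim1, a bHLH factor of the hypothalamus and kidney (chr10:50893724-50902719), was covered over 3381, 4343 and 4802 bp in mfn2-/- and 7416, 6989 and 7004 bp in vhl-/- lists. A second Gata4 region (chr14:63247370-63254504) had 1619, 1039 and 1049 bp against 6428, 5456 and 1807 bp, so the vhl-/- libraries themselves varied widely. Evx2, a homeobox gene beside the HoxD cluster, differed by -2829 bp and Igf2bp3 by -2769 bp (mfn2-/- minus vhl-/-). On the other side were Myh8 and, with differences of 676, 639 and 324 bp, A830031A19Rik, Gm20554 and Tollip. Anks1b, also among the 6, is named here after its values were seen (950 and 738 bp).

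**Figure D4:**
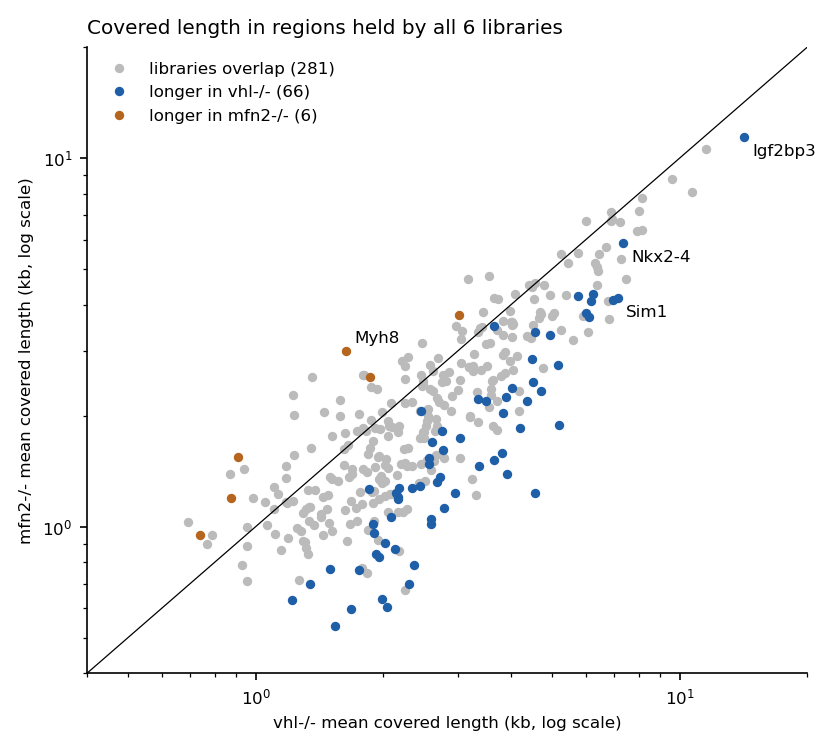
Mean covered length per region (kb, log axes) in 3 mfn2-/- and 3 vhl-/- libraries for the 353 regions held by all 6. The line marks equality, with 285 regions below it; coloured points are regions where the libraries of the genotypes do not overlap, 66 longer in vhl-/- and 6 longer in mfn2-/-, Myh8 among the latter.

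By mean log2 rank over the 6 lists, the strongest regions common to both genotypes were Nkx2-4, Gm26553, Igf2bp3, Gm5614 and Plag1. Nkx2-4, a homeobox gene (chr2:147085323-147094264), ranked 13, 8 and 1 in mfn2-/- and 2, 1 and 19 in vhl-/- lists, and the ranges overlapped. Igf2bp3, which encodes an RNA-binding protein of fetal tissues (chr6:49212760-49229202), ranked 5, 93 and 3 against 3, 6 and 2. Plag1, a zinc finger gene of fetal growth (chr4:3929720-3937599), ranked 20, 34 and 4 against 10, 7 and 1. Gm5614 was the exception, at 1, 1 and 2 in mfn2-/- and 92, 27 and 11 in vhl-/-.

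Lists of developmental genes, drawn up with earlier results of these data known, were counted next. Of 100 homeobox genes outside the Hox clusters, 81, 76 and 78 had a peak in the mfn2-/- lists and 85, 87 and 79 in the vhl-/- lists, with 66 in all 6. Of 58 Sox, T-box, Fox, Gata, Zic and related genes, 39, 38 and 38 had one in mfn2-/- and 42, 41 and 39 in vhl-/- lists. Tissue-specific bHLH genes (32) had 17, 17 and 18 against 16, 20 and 20, and the 39 Hox genes 17, 15 and 18 against 15, 15 and 16. The ratio of means was 0.936 for the homeobox list and 0.943 for the Sox to Zic list, beside 0.662 for all genes with a peak. At equal length these ratios were 0.987, 1 and 0.993, so both lists then differed little from all genes. The Hox list gave 17, 15 and 18 against 13, 15 and 12 at that length, a ratio of 1.25. For the bHLH list the ratio was 1.

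Of 52 Wnt, FGF, BMP and hedgehog genes, 20, 22 and 19 had a peak in mfn2-/- and 26, 30 and 27 in vhl-/- lists, and 18 to 23 in either genotype at equal length. Of 76 ion channel and neurotransmitter receptor genes, 13, 16 and 20 had one in mfn2-/- and 37, 25 and 30 in vhl-/- lists (ratio of means 0.533). At equal length their list gave 11, 16 and 18 against 26, 14 and 17, which overlapped.

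**Figure D5:**
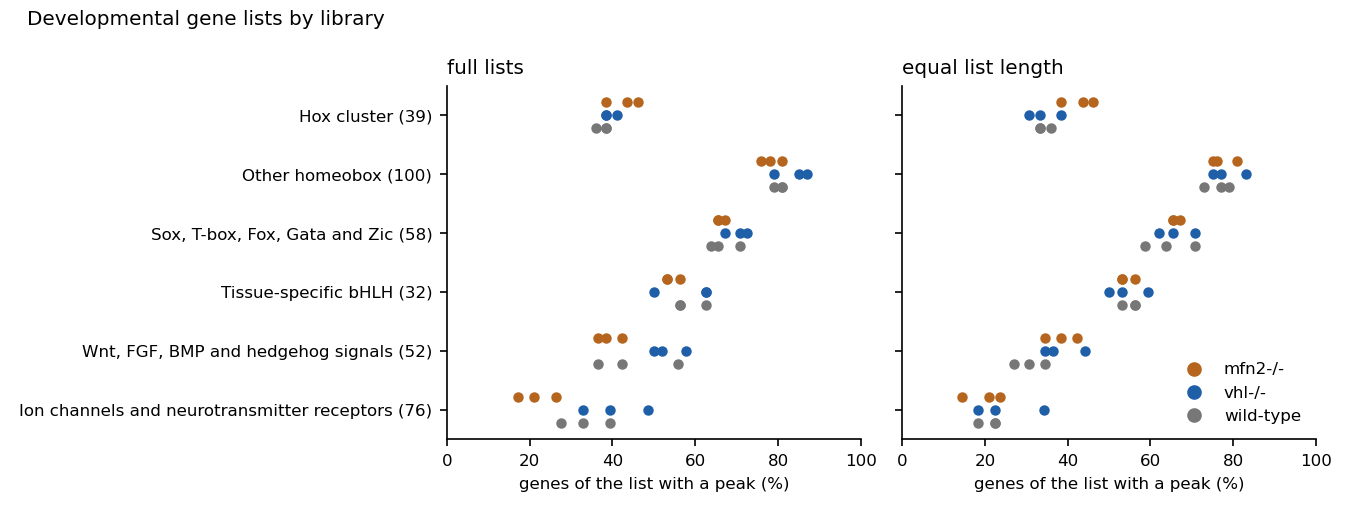
Share of the genes of 6 developmental lists (size in brackets) with an assigned autosomal peak, for each library of mfn2-/-, vhl-/- and wild-type, with full lists and at 2342 peaks per list. Each point is a library; the channel and receptor list runs from 13 to 20 genes in mfn2-/- and from 25 to 37 in vhl-/- full lists, and overlaps at equal length.

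Few genes separated the genotypes. Of 4157 genes with a peak in any of the 6 full lists, 9 (0.217%) had one in all 3 mfn2-/- and 0 vhl-/- lists and 102 (2.45%) showed the reverse. At equal length these were 18 (0.575%) and 31 (0.991%) of 3128 genes. All 6 lists shared 429 and 352 genes. Of the genes on the developmental lists, Nog was in mfn2-/- full lists only, and the vhl-/- side held Pax4, Irx6 and Prrx2 of the homeobox genes, Foxn4, the signals Shh and Wnt9b, and the potassium channel gene Kcnk9. Of the 102 vhl-/- genes 84 had a peak in at least 1 wild-type list and 26 in all 3, as did 6 and 2 of the 9 mfn2-/- genes.

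Genes of the muscle lineage and of the pathways deleted here were counted in the full lists. Among myogenic regulators, 4 of 11 (36.4%) had a peak in at least 1 of the 6 lists. So did 2 of 28 HIF1 target genes (7.14%) and 2 of 14 genes of the mitofusin and HIF pathways (14.3%). Over all genes 4157 had one, while the RefSeq windows, from another annotation, cover 25748 autosomal genes. Of 11 myogenic regulators, Pax3 had a peak in all 6 lists, covering 12028, 6320 and 8326 bp in mfn2-/- and 4349, 16039 and 9232 bp in vhl-/-, which overlapped. Eya1 and Eya2 were each in 2 mfn2-/- and 3 vhl-/- lists, and Pax7, the satellite cell factor that drives the Cre used here, in 1 and 2. Of 28 HIF1 target genes, Car12 had a peak in 1 mfn2-/- list and Kdm3a in 2 vhl-/- lists. Of 14 genes of the mitofusin and HIF pathways, Ppargc1a had one in 1 mfn2-/- list and Opa1, which drives fusion of the inner mitochondrial membrane, in 2 vhl-/- lists.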

How the data were processed

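H3K27me3 ChIP-seq used an Abcam antibody on myofiber chromatin cross-linked with 1% formaldehyde and fragmented to roughly 500 bp. Per the submitters' processing notes, BWA 0.7.5, MACS, deepTools 3.5.0 and the build mm10 were used, and the caller settings are not given in the sources used here. The deposited lists give the authors' peak score, width, annotation class and nearest gene for each library. That score is no count, and read totals are not in these lists, so depth is unknown and no counting interval was computed. Input, H3K9me3 and HIF1dPA libraries were not used here.

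Peaks on chromosomes 1 to 19 were merged where they overlapped by at least 1 base. Genotypes were compared with exact two-sided permutation tests over libraries in Python 3.11.15 with numpy 2.4.6, pandas 2.3.3 and matplotlib 3.10.9, after a check on simulated data. The members and gene lists were chosen with earlier results of these data known. Named regions were the 10 strongest of each genotype among those held by all 3 of its libraries and 0 of the other, the 10 in each direction with the largest rank difference, the 5 in each direction with the largest difference in covered length, and the 5 strongest shared; any others are named after their values were seen. Some regions that meet this rule are not reported here. Alternatives were list length, a score of at least 100, all chromosomes, joined peaks, other class and width limits, leaving out each library and a replicate block.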

Additional observations from a re-analysis of the deposited data

Results flagged for a closer look

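For several measures every mfn2-/- list lay on one side of the wild-type mean and every vhl-/- list on the other. Both differences use the same 3 wild-type lists. The difference between the mutants is tested in the report, with an exact permutation p = 0.1. In full lists, mean autosomal peak number minus the wild-type mean was -1084 in mfn2-/- and 300 in vhl-/-. Covered length differed from wild-type by -1034183 bp in mfn2-/- and 558468 bp in vhl-/-, and genes with a promoter peak by -330 and 90.3. At equal list length, covered length differed from wild-type by -330433 and 333880 bp, and median peak width by -146 and 102 bp. The share of peaks of 3 kb or more differed by -0.242 and 1.04 percentage points, the promoter share by -1.11 and 3.59, and the gene body share by 0.569 and -0.854.

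Chromosome X, which the comparison leaves out, held 30.2% of mfn2-/- peaks on average, above the 0.260% of wild-type lists.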

How the results depend on the processing

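The lower peak number, covered length, width, share of wide peaks and gene number of mfn2-/- kept their direction under every alternative that gave a value. With all chromosomes, though, the ratio of peak number was 0.914 (exact permutation p = 0.2) in place of 0.64 and the lists overlapped. The genotypes also overlapped in genes with a peak at equal length (ratio 0.993, exact permutation p = 0.3). At 5 kb or more the share of wide peaks differed by only -0.00673 points, with overlap. The promoter, gene body and intergenic differences did not keep their direction. They were -4.7, 1.42 and 3.32 points with equal list length and -10.1, 7.85 and 2.32 with all chromosomes. Promoter and gene body were -0.11 and 0.762 at a score of at least 100, and the class up to 1 kb alone gave -1.19. The cause was not tested. Leaving out each library gave gene body differences of -0.553 to 0.0593 and intergenic differences of -1.01 to 0.174, above 0 without mfn2-/- 2 for the former (0.0593) and without mfn2-/- 3, vhl-/- 2 or vhl-/- 3 for the latter (0.164, 0.174 and 0.0674).

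Many counts of separating features moved by over 1.5 times, while others stayed within that. Equal length gave 52 vhl-/- regions and 18 and 31 genes (mfn2-/- first). A score of at least 100 gave 4 and 18 regions, 6 and 3 ranked apart, 2 and 9 covered apart, the last chosen after seeing the data, and 4 and 19 genes. All chromosomes gave 48 mfn2-/- regions and 200 mfn2-/- genes. Regions apart by best score numbered 8 and 65, and by rank as a share of the list 9 and 50, both chosen after seeing the data. Joining peaks within 1000 bp gave 11 mfn2-/- regions and 12 ranked higher in vhl-/-. Allowing 1 library of the other genotype gave 53 and 264 regions, and promoter peaks alone 4 and 66 genes. With 1 library fewer, which makes separation easier by construction, there were 30 to 59 and 168 to 348 regions. Ranked apart were 34 to 44 and 34 to 52, and covered apart 14 to 17 and 89 to 120. Genes numbered 14 to 35 and 139 to 245. The vhl-/- regions moved by over 1.5 times in 3 of 6 such cases. Those covered longer in vhl-/- did so in 5, vhl-/- genes in 4, and the other counts in all 6.

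With the replicate number as a replicate block the values stay as they are, and the exact permutation p was 0.25, the smallest of 8 arrangements, for peak number, 0.5 for promoter and 0.75 for gene body and intergenic share. Same-numbered libraries correlated at -0.025 to 0.016 and others at -0.026 to 0.022, so the numbers were not taken to pair them. The number of 3 libraries per genotype limits every test.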
